A study of Rattus norvegicus with 6 samples.

Results

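The 7 genes Plg, Plau, Plat, Plaur, Serpine2, Serpinb2 and Serpinf1 of the plasminogen system were followed in rat Schwann cells stimulated with soluble NRG1. They were selected by symbol from the 17327 genes of the count tables, and all 7 members were found there. The list was chosen with the fold changes of NRG1 against mock already known, so the values of that contrast are given for these 7 genes as a description and without a test. The cells were primary Schwann cells from sciatic nerves of adult Wistar rats, the glial cells that ensheathe the axons of peripheral nerves. Confluent cells were starved overnight in medium with little serum and with forskolin, an agent raising cAMP that mock and NRG1 samples therefore shared, after growth in a medium that contained glial growth factor, itself a form of NRG1. They then received either 10 nM recombinant NRG1β1, a ligand acting through ErbB receptors, or its buffer of PBS with albumin, and were lysed after 6 h. There were 3 independent cultures, numbered 1 to 3, each of which gave 1 mock and 1 NRG1 sample, so that every comparison rests on 3 pairs.

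Plasmin is a serine protease that dissolves fibrin and cleaves matrix proteins and growth factor precursors. It is released from its inactive precursor, plasminogen, the product of Plg, by urokinase (uPA, from Plau) or by tissue plasminogen activator (tPA, from Plat), and the uPA receptor (uPAR, from Plaur) holds urokinase at the cell surface. Serpins, a family of suicide inhibitors, restrain these proteases: protease nexin-1 (Serpine2) blocks thrombin, urokinase and plasmin, and PAI-2 (Serpinb2) blocks the activators, whereas pigment epithelium-derived factor (Serpinf1) has the serpin fold without inhibiting proteases. In injured peripheral nerve, tPA and plasmin are known for clearing fibrin that would otherwise hinder regeneration, and Schwann cells are a source of tPA.

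The libraries held between 6821590 and 15475018 counts on genes, and 3 counts, taken as the smallest level that could be shown, corresponded to 0.19 to 0.44 CPM (the counts of a gene scaled to the total of its library on genes). The cells of culture 1 stood apart from those of the other cultures. The 6 Schwann cell markers S100b, Sox10, Erbb3, Ngfr, Cdh19 and Gfap were all counted in every sample, yet they summed to 2802 and 3049 CPM in culture 1 and to 5336 to 7043 CPM in cultures 2 and 3. The 7 fibroblast markers (Col1a1, Col1a2, Col3a1, Dcn, Lum, Pdgfra and Thy1) summed to 51950 to 55820 CPM in culture 1 and to 13770 to 22120 CPM in the others. In cultures 2 and 3 nearly all of this sum was Col1a1, at 13490 to 21290 CPM. Of the latter list Dcn, Lum and Thy1 had no count in cultures 2 and 3. Pdgfra was at 800.1 and 846.1 CPM in culture 1 and at most at 1.62 CPM elsewhere. Col1a2 was at or near 0 in all 6 samples, although Col1a1 was abundant in each. Whether Col1a2 reads could be lost in mapping or in the assignment to genes was not tested. Macrophage markers summed to at most 10.0 CPM, the endothelial markers Pecam1, Cdh5, Kdr and Tek to 5.80 to 14.8 CPM, nearly all of it Tek, and the hepatocyte markers Alb, Ttr and Apoa1 to 0.26 to 1.37 CPM, all of it Apoa1. In bulk RNA, fewer cells of a type and less RNA per cell cannot be told apart.

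The stretches of genome before the starts of 4 of these genes are shown. Plg and Plaur were taken because their mock and NRG1 levels did not overlap, and Plau and Serpinf1 because they differed most between the cultures. Promoters of 6 of the 7 genes were matched by symbol in the RefSeq table of the GRCr8 build, a newer build than the one to which the reads were mapped. Each line gives the 250 bases before the annotated start, 5′ to 3′ on the strand of the gene, with matches to 5 motifs in capitals. The motifs were searched on both strands. An AP-1 site was spelled TGANTCA. The cAMP response element was spelled TGACGTCA. For the TATA box the letters were TATAAA. A GC box was GGGCGG, and an E-box was CACGTG.
Plg, chr1:50915407-50915656, minus strand: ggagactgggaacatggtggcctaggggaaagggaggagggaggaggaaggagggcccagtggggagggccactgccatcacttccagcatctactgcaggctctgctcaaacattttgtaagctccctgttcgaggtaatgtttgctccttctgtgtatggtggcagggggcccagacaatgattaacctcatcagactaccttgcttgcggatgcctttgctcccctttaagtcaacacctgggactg
Plaur, chr1:89181113-89181362, plus strand: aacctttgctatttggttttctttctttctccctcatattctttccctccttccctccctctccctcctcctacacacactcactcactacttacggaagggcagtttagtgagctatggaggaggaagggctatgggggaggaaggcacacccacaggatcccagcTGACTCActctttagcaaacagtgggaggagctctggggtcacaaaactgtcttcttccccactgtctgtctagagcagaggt
Plau, chr15:3511988-3512237, minus strand: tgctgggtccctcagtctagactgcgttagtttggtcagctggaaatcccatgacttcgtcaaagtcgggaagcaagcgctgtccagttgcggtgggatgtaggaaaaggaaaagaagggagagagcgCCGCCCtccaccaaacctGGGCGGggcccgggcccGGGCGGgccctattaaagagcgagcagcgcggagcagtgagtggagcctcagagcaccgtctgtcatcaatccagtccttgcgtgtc
Serpinf1, chr10:60760899-60761148, minus strand: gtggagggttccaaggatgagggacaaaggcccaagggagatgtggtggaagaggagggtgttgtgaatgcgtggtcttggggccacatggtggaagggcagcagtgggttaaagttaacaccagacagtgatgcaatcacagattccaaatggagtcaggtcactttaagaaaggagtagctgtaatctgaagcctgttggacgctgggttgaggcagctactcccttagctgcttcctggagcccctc
The capitals in Plaur mark 1 AP-1 site, TGACTCA, beginning 83 bases before the start. Those in Plau mark 3 GC boxes, beginning 122, 104 and 87 bases before the start, the first of them on the opposite strand. In Plg and Serpinf1 none of these letters occurred. The AP-1 letters were found in 6.34% of the 33469 promoters of that table over the same 250 bases, the GC box in 30.5%, the TATA box in 12.9%, the E-box in 5.59% and the cAMP response element in 1.59%. Serpine2, not printed, held 6 GC box matches, some overlapping, and Serpinb2 held 1 AP-1 match, TGATTCA. Such matches describe letters and do not show that a factor binds.

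To describe the members under NRG1, a single model was fitted to all genes that passed a filter on low counts, with the culture number as a replicate block (edgeR). A gene outside the members was called when its p-value, adjusted over all 9740 genes tested, was at most 0.01 and its absolute log2 fold change was over 1, the thresholds of the study; a looser call used the adjusted p alone. Of the 7 members, 5 passed the filter. Plau had enough counts in culture 1 only and Serpinb2 had none, so neither entered the model. For these 5 the model gives a log2 fold change and its standard error, and no call is read from it, since the same contrast was known when the genes were chosen.

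Plg, which encodes plasminogen, was lower after NRG1 in all 3 cultures. It was counted 20, 68 and 61 times under mock conditions in cultures 1, 2 and 3 and 3, 6 and 17 times after NRG1, which is 2.60, 9.97 and 4.90 CPM against 0.39, 0.68 and 1.10 CPM. All NRG1 samples lay below all mock samples, and the NRG1 sample of culture 1 was at the floor of 3 counts. The mock mean of 5.82 ± 3.77 CPM compares with an NRG1 mean of 0.72 ± 0.36 CPM (both SD, n = 3). The fitted log2 fold change was -2.81 ± 0.37 (SE), a 7.02-fold lower level, with log2 ratios of -2.25, -3.53 and -1.97 in pairs 1, 2 and 3. The mRNA was scarce, and between 3 and 68 reads stood behind each value, and these few reads limit how precisely the difference can be sized. When 1 culture at a time was left out, the log2 fold change lay between -3.48 and -2.25. Of the 3 hepatocyte markers, Alb and Ttr had no count, and Apoa1 had 5, 5 and 17 counts in mock and 2, 5 and 9 in NRG1 samples 1, 2 and 3, its CPM being lower after NRG1 in each pair. Apoa1 thus moved the same way as Plg at very low counts, and its part in the difference was not tested.

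Plaur, which encodes the urokinase receptor, was higher after NRG1 in all 3 cultures. It was counted 166, 78 and 177 times under mock conditions in cultures 1, 2 and 3 and 288, 242 and 423 times after NRG1. In CPM these were 21.6, 11.4 and 14.2 in mock and 37.1, 27.4 and 27.3 in NRG1 samples, so that every stimulated sample lay above every mock sample. The means were 15.7 ± 5.24 and 30.6 ± 5.65 CPM (both SD, n = 3). The fitted log2 fold change was 0.99 ± 0.15 (SE), a 1.98-fold higher level, and the 3 pairs gave 0.78, 1.24 and 0.93. Without 1 culture at a time the log2 fold change lay between 0.89 and 1.09. Plg and Plaur were the 2 members whose mock and NRG1 levels did not overlap, as was the case for 19.2% of all genes tested, and nothing is read from that count.

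**Figure D1:**
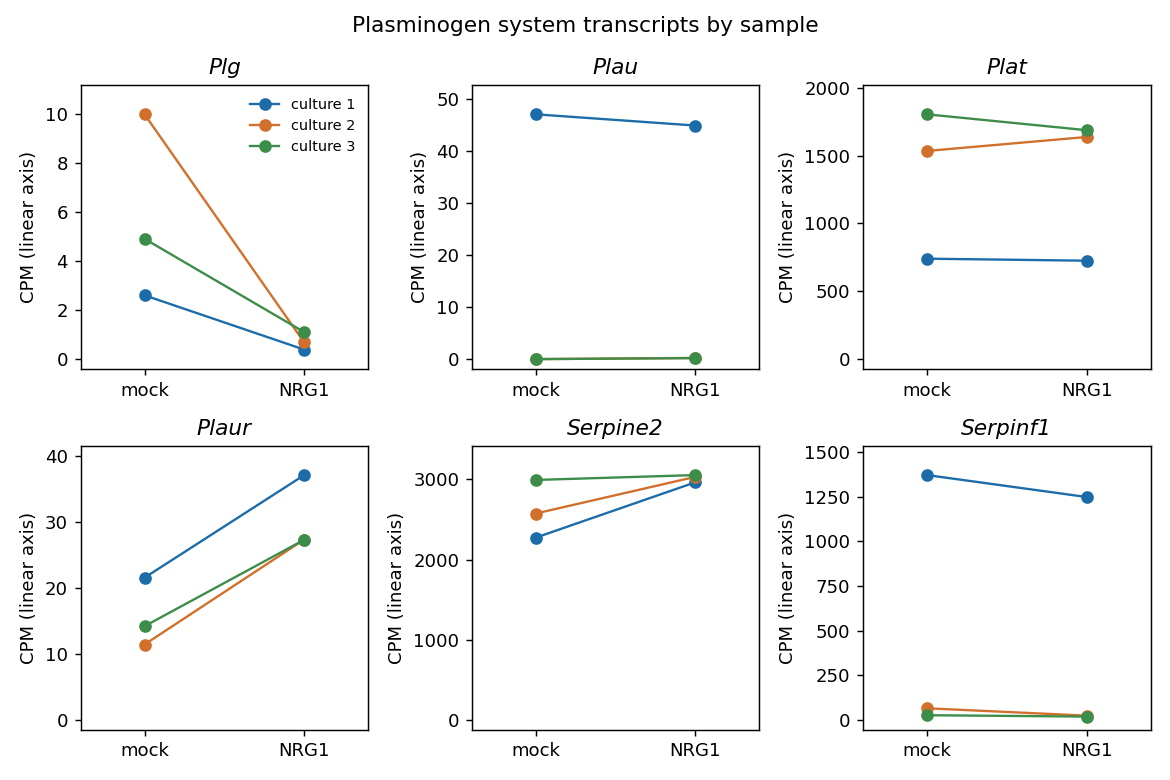
Level of 6 members in CPM (linear axes, each starting near 0) in mock and NRG1 samples, with 1 colour per culture and a line joining the 2 samples of a culture. Plg was lower and Plaur higher after NRG1 in all 3 cultures, while Plau and Serpinf1 were high in culture 1 alone and Plat was lowest there.

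Of the 2 activators, Plat passed the filter and Plau did not. Plat, the gene of tPA, was abundant, with 5696, 10467 and 22464 counts in the mock libraries of cultures 1, 2 and 3 and 5625, 14481 and 26112 in their NRG1 libraries. Its levels of 740.1, 1534 and 1804 CPM in mock were close to those of 725.3, 1637 and 1687 CPM in NRG1 samples, and the 2 groups overlapped. The fitted log2 fold change was -0.01 ± 0.13 (SE), with pair ratios of -0.03, 0.09 and -0.10 on the log2 scale. Plau, the gene of urokinase, was counted 362 times in mock sample 1 and 348 times in NRG1 sample 1, which is 47.0 and 44.9 CPM. In cultures 2 and 3 it had 0 and 0 counts in mock and 2 and 3 counts in NRG1 samples, none of them over the floor. Its single informative pair, culture 1, gave a log2 ratio of -0.07 between NRG1 and mock, and an effect of NRG1 in the other cultures was not detectable at this depth.

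Among the serpins, Serpine2 was counted at 2274, 2575 and 2994 CPM in mock and at 2965, 3033 and 3055 CPM in NRG1 samples 1, 2 and 3. The NRG1 samples lay close together, and the highest mock sample lay above the lowest of them. The means were 2614 ± 361.2 and 3018 ± 47.2 CPM (both SD, n = 3), and the fitted log2 fold change was 0.22 ± 0.14 (SE). The pair ratios were 0.38, 0.24 and 0.03 on the log2 scale. Serpinb2, the gene of PAI-2, had 0 counts in all 6 libraries. By counting error alone this allows a level of up to 0.19 CPM in the largest and 0.44 CPM in the smallest of them. Whether its reads could be lost in mapping or in the assignment to genes was not tested.

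Serpinf1 differed in size from pair to pair. Its counts of 10549, 443 and 325 in mock and 9678, 209 and 285 in NRG1 samples corresponded to 1371, 64.9 and 26.1 CPM and to 1248, 23.6 and 18.4 CPM. Within each culture the NRG1 sample was the lower one, by log2 ratios of -0.14, -1.45 and -0.50 in pairs 1, 2 and 3, while the groups as a whole overlapped widely. The fitted log2 fold change was -0.65 ± 0.20 (SE). It depended on the cultures included, being -0.97 without culture 1 and -0.27 without culture 2.

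**Figure D2:**
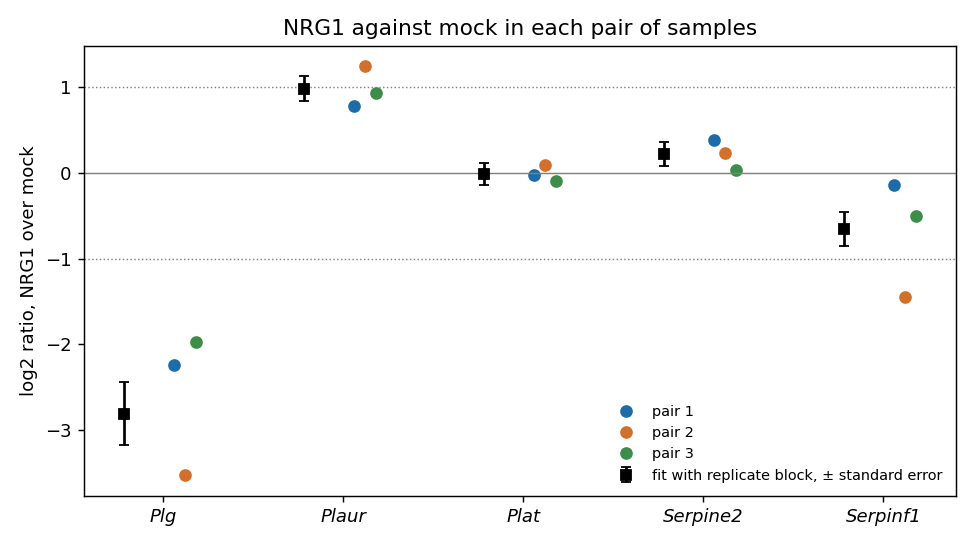
Log2 ratio of NRG1 over mock for the 5 members that passed the filter, per pair of samples (coloured points) and as fitted with the replicate block (black squares, bars are standard errors). Dotted lines mark log2 ratios of -1 and 1, and the fitted values were -2.81 for Plg and 0.99 for Plaur.

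The levels of the members were then compared between the 3 cultures, a difference on which they had not been chosen. Plau and Serpinf1 were higher in culture 1 than in cultures 2 and 3 by far more than the members moved with NRG1, Plat was lower there, and Serpine2 did not differ detectably. The test was edgeR's quasi-likelihood F-test of the culture terms in the same model. Each adjusted p given beside a difference of culture 1 belongs to this test of any difference among the 3 cultures. It is not a test of that difference alone. A culture is 1 preparation of cells divided into a mock and an NRG1 sample, so this test compares these 3 preparations with the spread left after condition, and it does not describe cultures in general. With a threshold of 0.01 on the adjusted p, 2 of the 5 tested members were called, where 23.4% of all genes tested were.

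Serpinf1 was 45.9-fold higher in culture 1 than in the mean of the other cultures, a log2 difference of 5.52 ± 0.21 (SE, adjusted p = 1.4e-10 by edgeR). The samples of culture 1 were at 1371 and 1248 CPM, whereas the 4 others lay between 18.4 and 64.9 CPM. Cultures 2 and 3 also differed from each other, by -0.92 on the log2 scale (SE 0.25, culture 3 minus culture 2), and without culture 1 Serpinf1 was still called (adjusted p = 0.0013 by edgeR). Plat showed the opposite order, with 725.3 and 740.1 CPM in culture 1 and 1534 to 1804 CPM in the other cultures, a 2.19-fold lower level. Its log2 difference was -1.13 ± 0.14 (SE, adjusted p = 6.9e-05 by edgeR). Between cultures 2 and 3 Plat had a log2 difference of 0.12 ± 0.16 (SE, adjusted p = 0.9 by edgeR without culture 1), so that its call rested on culture 1.

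Plau was summed to 710 counts in the 2 samples of culture 1 and to 5 counts in the 4 samples of cultures 2 and 3, or 46.0 against 0.11 CPM. The ratio was 401 with a 95% interval from 171 to 1238 (exact binomial), which covers counting error only. No test is given for Plau, which would pass the filter through culture 1 alone, and cultures 2 and 3 hold too few counts to compare with each other.

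The other members varied less between cultures. Plg was 2.57-fold lower in culture 1, a log2 difference of -1.36 ± 0.42 (SE, adjusted p = 0.031 by edgeR). Plaur was 1.55-fold higher there, at 0.63 on the log2 scale (SE 0.16, adjusted p = 0.015 by edgeR), so that neither was called. For Serpine2 the log2 difference was -0.11 ± 0.15 (SE, adjusted p = 0.73 by edgeR).

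Most tested Schwann cell and fibroblast markers moved with these differences. Of the 6 Schwann cell markers, 4 were called over cultures and all 4 were lower in culture 1, as Plat was. Over all genes tested, 23.4% were called in either direction. Cdh19 and Gfap were not called, with log2 differences of -0.231 ± 0.145 and 0.391 ± 0.189 (SE), so that Gfap went the other way. For Sox10, the lineage transcription factor, the log2 difference was -1.40 ± 0.14 (SE, adjusted p = 9.8e-06 by edgeR). The 3 fibroblast markers that passed the filter, Col1a1, Col3a1 and Pdgfra, were all higher in culture 1, as Plau and Serpinf1 were. Their log2 differences were 0.98, 6.04 and 10.0. Col1a1 and Col3a1 were called. No call is read for Pdgfra, which passed the filter only with the samples of culture 1. Between cultures 2 and 3 alone, 2.47% of all genes tested were called. There 0 of the 6 Schwann cell markers were called by edgeR (adjusted p from 0.51 to 0.99), and Col3a1 was called (adjusted p = 0.00061) while Col1a1 was not (adjusted p = 0.56). Their part in the culture differences of Plau, Serpinf1 and Plat was not tested. Between mock and NRG1 samples, 2 of the 6 Schwann cell markers were lower by the looser call, beside 5.51% of all genes tested. They were Cdh19 and S100b, by -1.10 and -0.58 on the log2 scale. Cdh19 was also called by both thresholds, beside 1.91% of all genes tested that were called lower. Col3a1, Col1a1 and Pdgfra had log2 fold changes of -0.98, -0.16 and 0.19 and were not called, Col3a1 narrowly (adjusted p = 0.012 by edgeR). In pairs 1, 2 and 3 the log2 ratios were 0.04, -1.57 and -1.41 for Col3a1 and 0.18, -0.66 and -0.01 for Col1a1. For Pdgfra, which had 1 to 25 counts in cultures 2 and 3, they were -0.08, 1.66 and 0.97. Without culture 1 the log2 fold changes of Plg and Plaur with NRG1 were -2.83 and 1.09. The part of the markers in the NRG1 changes of the members was not tested.

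**Figure D3:**
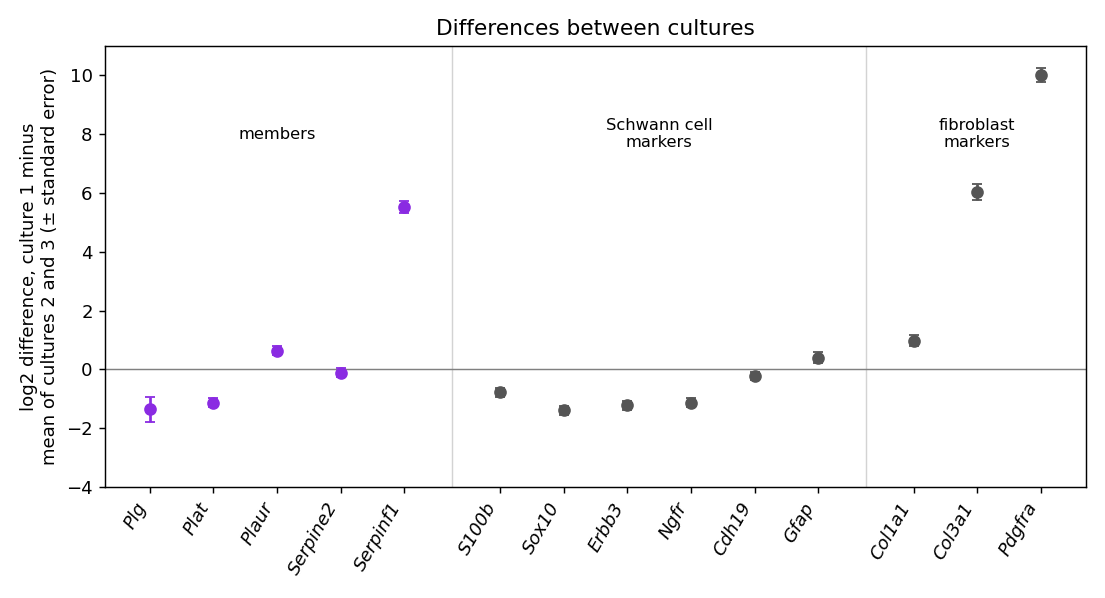
Log2 difference between culture 1 and the mean of cultures 2 and 3 for the 5 tested members, 6 Schwann cell markers and 3 fibroblast markers, from the model with culture and condition (points, bars are standard errors). Serpinf1, at 5.52, lay on the side of Col1a1, Col3a1 and Pdgfra, the last of which passed the filter only with the samples of culture 1. Plat, at -1.13, lay on the side of Sox10, Erbb3 and Ngfr, while Gfap, at 0.391, lay on the opposite side.

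By the correlation of log2 CPM over the 6 samples, the genes most like Serpinf1 were Thbs1, Lima1 and Ptprk, with Pearson r from 0.9986 to 0.999. Those most like Plat were Msantd3, Rhog and Slc9a3r1, with r from 0.9979 to 0.9987. For Plg they were Ppp3ca, Rb1 and Olfml2b (r from 0.9899 to 0.9971), for Plaur Pgk1, Trmt11 and Spats2 (r from 0.9814 to 0.9862), and for Serpine2 Dnph1, Ier3 and Coq9 (r from 0.9808 to 0.9913). The 6 points share 3 cultures, so a gene that differs between cultures resembles many others, and the values describe these samples only.

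The other genes of the plasminogen system were taken from 5 lists with 82 symbols in all, of which 79 were in the files and 30 passed the filter. None of the 30 was called by both thresholds in edgeR or in DESeq2 with the block, where 1.56% of all genes tested were called higher and 1.91% lower in edgeR. An unadjusted p under 0.05 was reached by 14 of the 30 in edgeR, 3 of them higher and 11 lower. Over all genes tested, 35.7% reached it in either direction. By the adjusted p alone 2 rose and 3 fell with NRG1, beside 6.31% of all genes tested that rose and 5.51% that fell. Their median log2 fold change was -0.10, beside -0.03 over all genes tested.

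Of the inhibitors outside the members, 2 of 8 were tested. Serpinf2, the gene of α2-antiplasmin, averaged 1.76 ± 0.43 CPM under mock conditions and 1.67 ± 0.25 CPM after NRG1 (both SD, n = 3) and was not called. Serpini1, the gene of neuroserpin, an inhibitor of tPA, averaged 3.44 ± 1.66 CPM with mock and 1.95 ± 0.81 CPM with NRG1 (both SD, n = 3), and it was not called either.

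Receptors and cofactors that bind plasminogen, its activators or their complexes with serpins gave 14 tested genes of 20 listed. Eno1, a glycolytic enzyme that also binds plasminogen at the cell surface and whose counts can be split with processed pseudogenes, rose from 96.3 ± 24.4 to 166.7 ± 6.94 CPM (SD, n = 3 each), with a log2 fold change of 0.82 ± 0.14 (SE, adjusted p = 0.00075 by edgeR). Lrp2, the endocytic receptor megalin, was at 22.5, 128.9 and 53.7 CPM in mock and at 10.4, 47.5 and 38.3 CPM in NRG1 samples 1, 2 and 3. It fell in each pair although the groups overlapped, with a log2 fold change of -0.99 ± 0.17 (SE, adjusted p = 0.001 by edgeR). Itgb5, an integrin subunit that binds vitronectin, fell by 0.69 on the log2 scale (SE 0.17, adjusted p = 0.0086 by edgeR), with pair ratios from -1.18 to -0.16. Lrp1, the main receptor for uptake of protease and serpin complexes, and Anxa2 with S100a10, which bind tPA and plasminogen together, had log2 fold changes of -0.29, 0.28 and 0.31 and were not called. Vtn, which encodes vitronectin, had 1 count in a single library, or 0.13 CPM.

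Among 15 listed substrates, 6 were tested, and 1 rose. Tgfb1, whose latent product plasmin can activate, rose from 109.3 ± 17.3 to 171.9 ± 33.3 CPM (SD, n = 3 each), a log2 fold change of 0.65 ± 0.12 (SE, adjusted p = 0.0019 by edgeR). The fibrinogen genes Fga, Fgb and Fgg were at or near 0 in all samples. The 4 tested genes of other activating proteases and the thrombin arm, Hpn, F2r, F3 and Tfpi, had log2 fold changes from -0.28 to 0.46 and were not called. Of 27 other serpins 20 had no count in any sample and 4 were tested, of which Serpinb9, an inhibitor of granzyme B, fell by 0.86 on the log2 scale (SE 0.15, adjusted p = 0.0013 by edgeR).

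**Figure D4:**
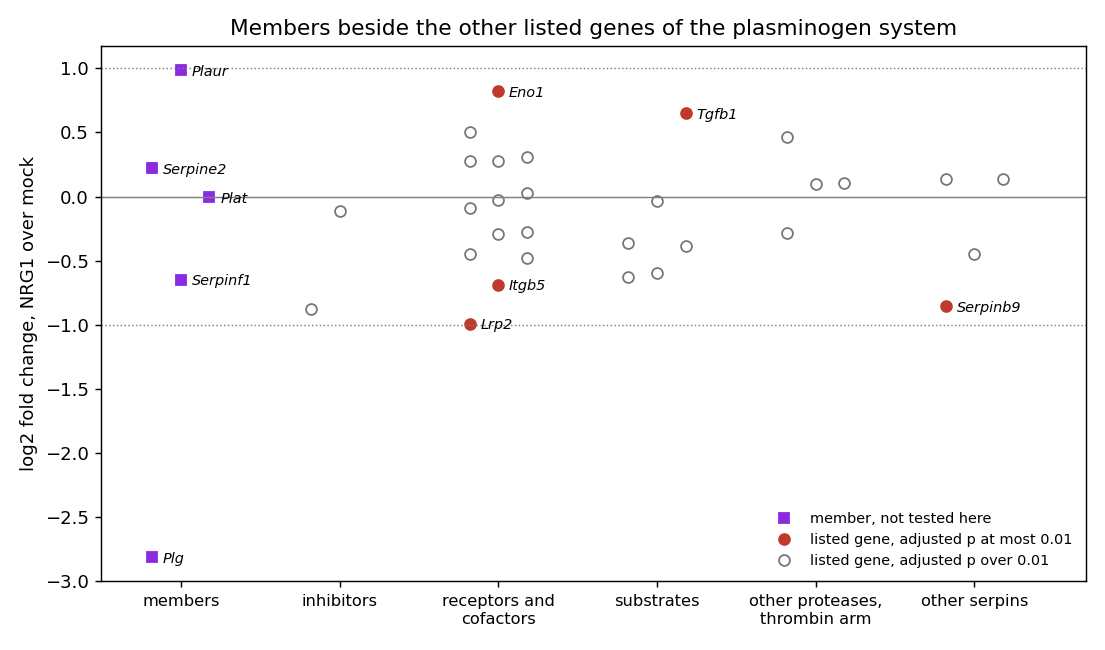
Log2 fold change of NRG1 over mock for the 5 members that passed the filter and the 30 other tested genes, by list. Squares are members, given without a test, filled circles are listed genes that passed an adjusted p of 0.01 over all genes tested, both named, and the dotted lines mark a log2 fold change of -1 and 1, outside which only Plg lies.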

How the data were processed

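RNA from 3 mock and 3 NRG1 samples was poly(A)-selected and sequenced. The authors mapped the reads to rn5 with TopHat 2.0.10, assigned them to RefSeq genes with HTSeq and deposited the raw counts, the only unit used here. The 5 summary lines per file, 50.1% to 53.0% of alignments, were left out. Whether counting used strand is not given in the sources used here. Libraries held 6821590 to 15475018 counts on genes.

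In R 4.3.3, edgeR 4.0.16 (filterByExpr with a minimum count of 10, which kept 9740 genes, TMM, quasi-likelihood test, Benjamini-Hochberg adjustment) fitted culture number and condition, the paired design of the study. DESeq2 1.42.0 was an alternative. Standard errors are the log2 fold change over the square root of F. Pair ratios use log2 CPM with a prior count of 2. Same-numbered samples came from the same culture, and their deviations from the group means correlated across genes at r from 0.67 to 0.91, against -0.80 to 0.51 for other numbers. No 2 libraries agreed within sampling noise (chi-square per degree of freedom at least 21.4). Scripts were tested on simulated data. The members, lists and tests were chosen with earlier results of these data known. Of the listed genes, 4 are not reported here and were left out of the lists' counts and sums, though not of the fit. Named genes are the 7 members, listed genes with an adjusted p of at most 0.01, and the 3 genes most correlated with each tested member; others were named after their values were seen. CPM values were not compared between genes, as transcript lengths were not used. Motifs were searched in RefSeq promoters of GRCr8.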

Additional observations from a re-analysis of the deposited data

How the results depend on the processing

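With no replicate block, that is without the paired design, edgeR called 0 genes instead of 338 (smallest adjusted p 0.14, 1334 genes with an unadjusted p under 0.05), and DESeq2, also with no replicate block (chosen after seeing the data), called 88. Plg then had a log2 fold change of -2.92 in edgeR. DESeq2 with the block and shrunken fold changes called 189 genes, with Plg at -1.51, and the adjusted p alone called 1152. Plaur came to 1.01 in DESeq2 with the block and to between 0.89 and 1.09 without 1 replicate. Of the pathway genes, 0 were called, but 1 (Lrp2, -1.01) with no low-count filter, 0 to 1 without 1 replicate (Serpinb9 without replicate 1, Lrp2 without replicate 3), and 5 by the adjusted p alone. Over cultures, 2278 genes were called, 3543 with no low-count filter and 245 to 3783 without 1 replicate, the lowest without replicate 1. In that test Plat lost its call without replicate 1, and Plg and Plaur gained one with no low-count filter (adjusted p = 0.0066 and 0.0043 by edgeR), Plg without replicate 3 (0.0064) and Plaur without replicate 2 (0.0062). RLE normalization changed no call of a member over cultures. Plg, Plaur, Serpine2 and Serpinf1 kept their sign in all alternatives run, and Plat lay between -0.04 and 0.05. With at least 10 counts in every sample, Plg gave no value. Depth limits Plg, at 3 to 68 reads per library, and left Plau in cultures 2 and 3 without a usable value. Serpinb2, with no count, gave no value either. Serpinf1 ranged from -0.97 to -0.15.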

Other observations

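Among the 49 listed genes of the plasminogen system that were in the files but not tested, 9 had at least 10 counts in both samples of culture 1 and fewer than 10 in each of the 4 other samples, the pattern of Plau, which is 18.4% of them beside 4.96% of all 7587 untested genes. These 9 were named after their values were seen. Thbd, which encodes the thrombin receptor thrombomodulin, had 4459 counts in mock and 3734 in NRG1 sample 1, and 1 count in cultures 2 and 3 together. Mmp3 and Mmp13, matrix metalloproteinases whose precursors plasmin can activate, had 950 and 418 counts in mock sample 1 and 797 and 374 in NRG1 sample 1, against 1 and 0 in the other cultures. Egfr had 152 and 192 counts in culture 1, Hgf 77 and 37, and both had 0 in cultures 2 and 3. The others were Tfpi2, Serpinb6b, Serping1 and St14, the last with 11 and 12 counts in culture 1 and up to 7 in the other libraries. Of the 30 tested genes of these lists, 21 differed between cultures at an adjusted p of at most 0.01 in edgeR. Of these, 19 were higher in culture 1 and 2 were lower. Over all 9740 genes tested 23.4% differed, 1192 genes being higher in culture 1 and 1086 lower. Between cultures 2 and 3 alone, 1 listed gene, Lrp2, was called, where 2.47% of all genes tested were. Neither the cause of this difference between preparations nor its link to the fibroblast markers was tested.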
